A study of Mus musculus with 2 samples.

Results

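The 31 genes described here make, sense, export or store cholesterol or make fatty acids: 16 enzymes of sterol synthesis, 6 genes that control the sterol response or carry sterol inside the cell, 6 genes of the liver X receptor (LXR), sterol efflux and sterol storage, and 3 enzymes of fatty acid synthesis. They were taken by symbol from a matrix of 22597 mouse genes, and all 31 were in it. Their messenger RNA was counted in donor-derived lung monocytes and macrophages of chimeric mice. The hosts, IM-DTR mice of the type CD45.1+CD45.2+, were irradiated. Diphtheria toxin removes their interstitial macrophages, and mice of both groups were given 50 ng of it 10 days before sacrifice. Donor marrow of both groups was CD45.1-CD45.2+. In the control group it was Tgfbr2 fl/fl. In the Tgfbr2-KO group it carried LyzM-Cre as well, a recombinase of myeloid cells, monocytes, macrophages and neutrophils among them, that targets the floxed TGF-beta receptor gene. Both groups carried the floxed allele, and the ages of the mice are not in the labels. Cells of 5 mice were pooled per group and sorted for donor type, for CD11b and CD64, for low side scatter, and for the lack of Ly6G and SiglecF. The control pool was tagged with hashtag B0301 and the Tgfbr2-KO pool with B0303, and both were run together in 1 droplet library. There is thus 1 pool per genotype with no replicate, single mice cannot be told apart, and no test across samples was possible.

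Cells make cholesterol from acetyl-CoA through mevalonate, isoprenoids, squalene and lanosterol. When sterol in the endoplasmic reticulum is low, SCAP carries SREBP-2, the product of Srebf2, to the Golgi, where it is cut and released to switch on the synthesis genes, and INSIG proteins hold it back when sterol is plentiful. When sterol is plentiful, oxidised sterols instead activate the LXR proteins, which switch on the exporters Abca1 and Abcg1, and the fatty acid programme through Srebf1. Lung macrophages take up surfactant lipid and cell debris, so export of cholesterol is part of their known work.

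The control pool held 1896 cells with 16298452 gene UMIs (unique molecular identifiers, each standing for 1 captured transcript), and the Tgfbr2-KO pool 2674 cells with 30729204. The median cell held 7785 UMIs in the control pool and 10278 in the Tgfbr2-KO pool. Levels are UMIs per 1000000 gene UMIs of the pool or gate (UPM), and ratios are Tgfbr2-KO over control. The library counts 1 tag at the 3′ end of a transcript, so levels were not divided by gene length. All intervals are exact 95% intervals for counting error, and they hold neither the spread between mice nor that between cells. UMIs of 1 cell are not independent, so the intervals are too narrow. A member is called higher or lower at 1.5-fold or more with at least 100 UMIs over both pools. Tgfbr2 itself read 215 UPM in the control and 195 UPM in the Tgfbr2-KO pool; a 3′ tag need not lie in the deleted part, so this does not check the deletion. Itgam, Fcgr1 and Adgre1, which encode CD11b, CD64 and F4/80, read at least 116 UPM in both pools, and Siglecf and Ly6g at most 0.92 UPM, as the sort implies. Summed neutrophil markers (10 of 10 listed genes in the matrix) read 58.0 and 142 UPM, alveolar epithelium markers (8 of 8) 103 and 219 UPM, and T, NK or B cell markers (8 of 8) 9.88 and 10.4 UPM in the control and Tgfbr2-KO pools. Alveolar macrophage markers (10 of 10) were higher in the control pool, with 62.3 UPM against 33.9 UPM. The part of these other cells or of free RNA in the results was not tested beyond the settings given here.

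Over all cells, summed transcripts of the sterol synthesis genes were higher and those of the efflux genes lower in the Tgfbr2-KO pool. The 16 synthesis genes together read 219 UPM in the control pool (interval 212 to 226) and 318 UPM in the Tgfbr2-KO pool (312 to 325), a ratio of 1.46 (1.40 to 1.51). Abca1 and Abcg1 together read 767 UPM (754 to 781) and 384 UPM (377 to 391), a ratio of 0.50 (0.49 to 0.51). Abca1 alone read 690 and 329 UPM, and Abcg1 76.7 and 54.5 UPM, a ratio of 0.71 that was not called. The efflux sum over all cells, its ratio and its quotient thus mostly describe Abca1. The quotient of synthesis over efflux UMIs was thus 0.285 in the control and 0.830 in the Tgfbr2-KO pool. Of the 31 members, all with enough UMIs, 8 were called higher (Mvk, Pmvk, Mvd, Fdps, Sqle, Nr1h3, Scd1 and Scd2) against 11.9% of all 10237 genes tested, and 1 was called lower (Abca1) against 7.53%. Scd1 had enough UMIs only through 1 Tgfbr2-KO cell, described below. The median log2 ratio of the members was 0.26, against 0.09 for all genes tested. The pools also differed in their mix of cell states and in cell depth. With the same mix of cell states in both pools the synthesis ratio was 1.26 and the efflux ratio 0.59, and with the same mix of cell depths they were 1.29 and 0.52.

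**Figure D1:**
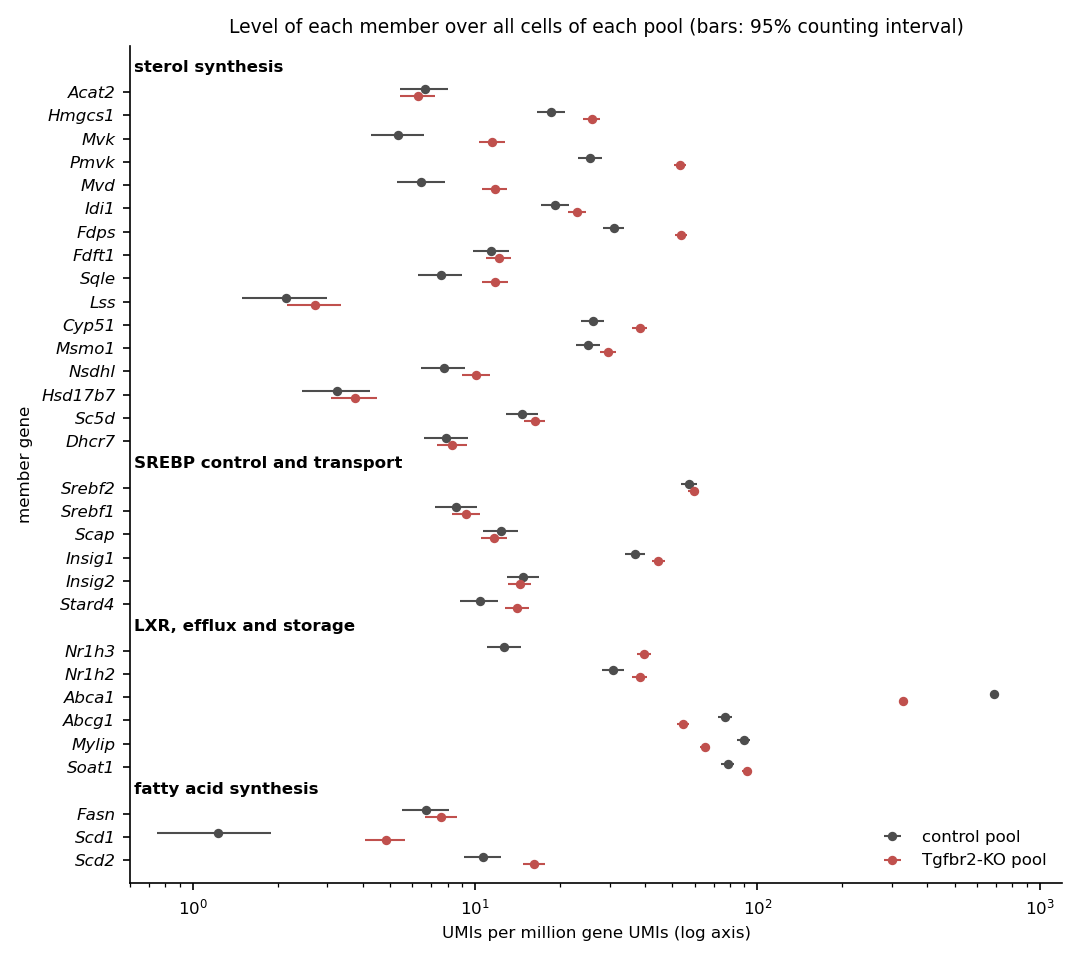
Level of each of the 31 members over all cells, in UMIs per 1000000 gene UMIs on a log axis, for the control pool (grey) and the Tgfbr2-KO pool (red), with 95% counting intervals (narrower than the point where none shows). Abca1 stands far above the other members in both pools, at 690 and 329. The sterol synthesis genes other than Acat2 lie further right in the Tgfbr2-KO pool. For Fdft1, Lss, Hsd17b7, Sc5d and Dhcr7 the interval of the ratio spans 1. The median log2 ratio was 0.36 for the synthesis genes and 0.09 for all genes tested.

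Among synthesis genes over all cells, the highest ratios were those of the mevalonate steps after HMG-CoA, an order that did not hold in the Mrc1-absent gate. In that gate Mvk still had the highest ratio, 2.11 (1.62 to 3.20 over the other settings). The ratio there was 1.24 for Mvd and 1.72 for Pmvk, and 1.92 for Sqle from 17 and 32 UMIs (1.29 to 2.91). Acat2 joins acetyl-CoA units, and Hmgcs1 makes HMG-CoA, the substrate of the rate-limiting reductase. Acat2 read 6.63 UPM in the control and 6.28 UPM in the Tgfbr2-KO pool, and was the only synthesis gene with a ratio under 1. Hmgcs1 read 18.6 and 25.9 UPM, short of the 1.5-fold call. The 3 enzymes that phosphorylate and decarboxylate mevalonate were all called higher. Mvk, the mevalonate kinase (chr5:114444264-114460591, GRCm38), read 5.34 and 11.5 UPM, a ratio of 2.16 (1.70 to 2.76). Pmvk, the next kinase (chr3:89454541-89469014), read 25.6 and 53.3 UPM, a ratio of 2.08 (1.87 to 2.33). Mvd, the decarboxylase, read 6.44 and 11.7 UPM, a ratio of 1.82 (1.46 to 2.29). With the same mix of gates in both pools Mvk kept its call, Pmvk, Mvd, Fdps and Sqle lost theirs, and Nsdhl, an enzyme of the later steps, was called higher with a ratio of 1.51. Of the isoprenoid enzymes, Idi1 read 19.2 and 23.0 UPM, while Fdps, which makes farnesyl diphosphate, read 30.98 and 53.8 UPM, a ratio of 1.74 (1.57 to 1.92).

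The squalene and later steps differed less over all cells. Fdft1, which commits farnesyl units to sterol, read 11.4 and 12.1 UPM with an interval of the ratio that spans 1 (0.89 to 1.27). Sqle, the squalene epoxidase, read 7.55 and 11.8 UPM, a ratio of 1.56 (1.27 to 1.93). It lost its call with trimmed-mean scaling and with the same mix of depths too, with a lowest ratio of 1.34. Cyp51, the lanosterol demethylase, read 26.1 and 38.3 UPM, a ratio of 1.47 (1.31 to 1.64), just under the call. Lss, which makes lanosterol, and the other lanosterol-to-cholesterol enzymes, Msmo1, Nsdhl, Hsd17b7, Sc5d and Dhcr7, had ratios from 1.05 to 1.30 without matching of gates. Pmvk and Fdps held 11.7% and 14.2% of the synthesis UMIs in the control pool and 16.7% and 16.9% in the Tgfbr2-KO pool, so these 2 genes carry a good part of the sum.

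The genes that sense sterol differed little between the pools. Srebf2 read 57.4 UPM in the control and 59.5 UPM in the Tgfbr2-KO pool, a ratio of 1.04 (0.96 to 1.12). Scap, its escort, read 12.3 and 11.7 UPM. Insig2, a retention factor, read 14.8 and 14.4 UPM. Both Scap and Insig2 had intervals of the ratio that span 1. Insig1, the retention factor that is itself a target of SREBP-2, read 36.8 and 44.6 UPM, a ratio of 1.21 (1.10 to 1.33). Stard4, which carries sterol through the cytosol, read 10.4 and 14.1 UPM, a ratio of 1.36 (1.14 to 1.63). Srebf1 read 8.59 and 9.31 UPM. None of the 6 was called.

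The genes of LXR, sterol efflux and storage differed in opposite directions, with both genes that encode LXR higher in the Tgfbr2-KO pool. Nr1h3, which encodes LXR-alpha (chr2:91184061-91202829), read 12.7 UPM in the control (11.0 to 14.6) and 39.8 UPM in the Tgfbr2-KO pool (37.6 to 42.1), a ratio of 3.13 (2.70 to 3.65). Nr1h2, which encodes LXR-beta, read 30.9 and 38.2 UPM, a ratio of 1.24 (1.12 to 1.38). Abca1, the exporter that loads cholesterol onto lipid-poor apolipoprotein (chr4:53030789-53159988), read 690 UPM in the control (678 to 703) and 329 UPM in the Tgfbr2-KO pool (323 to 336), a ratio of 0.48 (0.46 to 0.49). Abca1 kept its call in each of the 11 other settings over all cells, with ratios from 0.43 to 0.58, and Nr1h3 kept its call in all 11 too, with ratios from 2.16 to 4.42. Abcg1, the exporter to larger lipoproteins, read 76.7 and 54.5 UPM, a ratio of 0.71 (0.66 to 0.77). Mylip, a ligase that marks the LDL receptor for breakdown and an LXR target, read 89.4 and 65.2 UPM, a ratio of 0.73 (0.68 to 0.78). Soat1, which esterifies cholesterol for storage, read 78.5 and 91.8 UPM, a ratio of 1.17 (1.09 to 1.25). The receptor gene Nr1h3 was thus higher in the pool in which Abca1, Abcg1 and Mylip read lower, of which Abca1 alone passed the call.

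The promoters of these genes were searched for the known response elements of SREBP and LXR, to show which members hold them. RefSeq promoter stretches (GRCm38.p6) were matched by symbol for 24 of the 31 members, and the 250 bases before each start were read on both strands. The shares below are of stretches, whereas members are counted by gene. A gene may have several stretches, so the shares and the member counts differ in unit. The sterol regulatory element was searched as TCACNCCAC, which 1.05% of 32851 mouse promoter stretches of the same length hold. Among the members it was found in that of Hmgcs1. It contains the shorter form TCACNCCA, held by 3.67% of all stretches and found in Hmgcs1, Msmo1 and Srebf2. The LXR element, a direct repeat with a 4-base spacer, was searched as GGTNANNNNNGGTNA, which 0.621% hold. It was found in Abca1, Srebf1 and Fasn, in all 3 on the strand opposite to the gene, so it reads reversed here. Each stretch runs 5′ to 3′ on the strand of its gene, with the match in capitals. The stretches are chr13:119690174-119690262 (plus strand) for Hmgcs1, chr15:82147067-82147154 (plus) for Srebf2, chr8:64733708-64733795 (minus) for Msmo1, chr4:53159941-53159969 (minus) for Abca1, chr11:60210632-60210660 (minus) for Srebf1 and chr11:120824751-120824779 (minus) for Fasn. The last 3 lie before the start site used but inside the gene's annotated span, and are therefore shown short.
Hmgcs1: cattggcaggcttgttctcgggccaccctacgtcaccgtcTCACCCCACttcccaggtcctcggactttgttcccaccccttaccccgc
Srebf2: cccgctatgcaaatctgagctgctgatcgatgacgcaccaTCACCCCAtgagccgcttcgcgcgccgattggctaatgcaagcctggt
Msmo1: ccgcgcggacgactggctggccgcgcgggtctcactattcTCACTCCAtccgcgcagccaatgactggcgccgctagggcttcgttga
Abca1: cagcgttTGACCGGTAGTAACCccggcgc
Srebf1: acgacagTGACCGCCAGTAACCccagcgc
Fasn: gccacgaTGACCGGTAGTAACCccgcctg
Abca1 and Fasn hold the same 15 letters, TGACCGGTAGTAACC, but not the same response in these pools. Abca1 was 2.10 times lower in the Tgfbr2-KO pool, while Fasn, the fatty acid synthase, read 6.69 and 7.58 UPM, a ratio of 1.13 (0.90 to 1.44). Of the genes with the shorter sterol element, Hmgcs1 had a ratio of 1.40, Srebf2 of 1.04 and Msmo1 of 1.17. A match describes these letters only and is not evidence of binding.

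The fatty acid genes were low in both pools, and the call of Scd1 rested on 1 cell. Scd1 and Scd2 are desaturases that make monounsaturated fatty acids. Scd1 had 20 UMIs in the control pool and 148 in the Tgfbr2-KO pool, a ratio of 3.92 (2.45 to 6.61). One Tgfbr2-KO cell held 123 of those 148 UMIs and fell in the structural gate, a set of 5 control and 12 Tgfbr2-KO cells rich in transcripts of lung epithelium and stroma. Without that gate the Scd1 ratio was 0.67 and Scd1 had too few UMIs for a call. Of the 30 members then tested, 7 were called higher, against 11.6% of genes. Scd2 read 10.7 UPM in the control and 16.1 UPM in the Tgfbr2-KO pool, a ratio of 1.51 (1.27 to 1.81), which ranged from 1.14 to 1.57 over the other settings.

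Other genes of these pathways mostly kept near the same level. Of 9 further sterol genes tested over all cells, 2 were called higher: Tm7sf2, a sterol reductase (1.60 and 3.19 UPM), and Erg28, a scaffold of the demethylation enzymes (16.8 and 30.04 UPM). Of 8 genes that handle SREBP, 1 was called higher, Erlin1 (24.8 and 41.3 UPM). Of 15 LXR targets and cholesterol traffic genes, 1 was called higher, the lipoprotein receptor Scarb1 (7.73 and 19.2 UPM), and 1 lower, the LXR target Arl4c (184 and 121 UPM). None of the 11 further fatty acid genes with enough UMIs was called in either direction, of 15 listed. The backgrounds were the same 11.9% and 7.53%.

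Cells were then sorted into states by marker UMIs after each cell had been thinned at random to 3000 UMIs, which left out 80 control and 83 Tgfbr2-KO cells. Cells with complement C1q, a macrophage marker, were divided by Mrc1, the gene of CD206, into Mrc1-high (2 or more UMIs of 3000), Mrc1-intermediate (1 UMI) and Mrc1-absent (0 UMIs). The Mrc1-high cells were divided further by Folr2, Cd163 and Lyve1. The name absent refers to the thinned cell: the full counts of that gate still held 161 and 159 UPM of Mrc1 in the control and Tgfbr2-KO pools, against 2682 and 2740 UPM in the Mrc1-high Folr2 gate. Of 4407 gated cells, 848 were 1 UMI below the Mrc1-high cut and 519 at it, so these are ranges rather than types. The thinning was repeated 20 times, and ranges over the repeats are given beside the values within gates.

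Among the 4 Mrc1 gates the efflux sum was highest in the Mrc1-high Folr2 gate and lower in each gate of lower Mrc1. The synthesis sum was highest in classical monocyte-like cells. In the control pool the efflux sum was 1382 UPM in the Mrc1-high Folr2 gate (157 cells), 899 UPM in the other Mrc1-high cells (541), 578 UPM in the Mrc1-intermediate gate (330) and 420 UPM in the Mrc1-absent gate (447). The Tgfbr2-KO pool had the same order, with 875 UPM (279 cells), 592 UPM (517), 347 UPM (299) and 298 UPM (362). Classical monocyte-like cells, which had low C1q and transcripts such as Ly6c2, read 155 UPM in 27 control cells and 123 UPM in 239 Tgfbr2-KO cells. Their synthesis sum was 680 and 471 UPM, the highest of the gates drawn. Over the 4 Mrc1 gates in the same order the synthesis sum was 161, 173, 203 and 192 UPM in the control pool and 140, 228, 249 and 258 UPM in the Tgfbr2-KO pool, so in the control pool it did not follow the efflux order in reverse throughout. The Fn1 Gpnmb gate of the control pool had both sums high, 316 UPM of synthesis and 939 UPM of efflux. Cells of low C1q in neither monocyte-like gate (46 control and 123 Tgfbr2-KO cells) read 1198 and 324 UPM of efflux. Cells too shallow to be gated read 2988 and 1005 UPM. A patrolling monocyte-like gate, also of low C1q (10 and 20 cells), had a synthesis sum of 153 and 385 UPM. The classical monocyte-like gate also held markers of other cells. The alveolar macrophage list (10 genes, 7 with a UMI in the control and 2 in the Tgfbr2-KO cells) read 2562 and 169 UPM there. That list shares Chil3 with the marker list of the gate, so it is not independent of the gate. The neutrophil list read 107 and 278 UPM. The part of these other cells in the synthesis sums of this gate was not tested. The quotient of synthesis over efflux ran from 0.117 and 0.160 in the Mrc1-high Folr2 gate to 4.38 and 3.84 in the classical monocyte-like gate, for the control and Tgfbr2-KO pools.

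**Figure D2:**
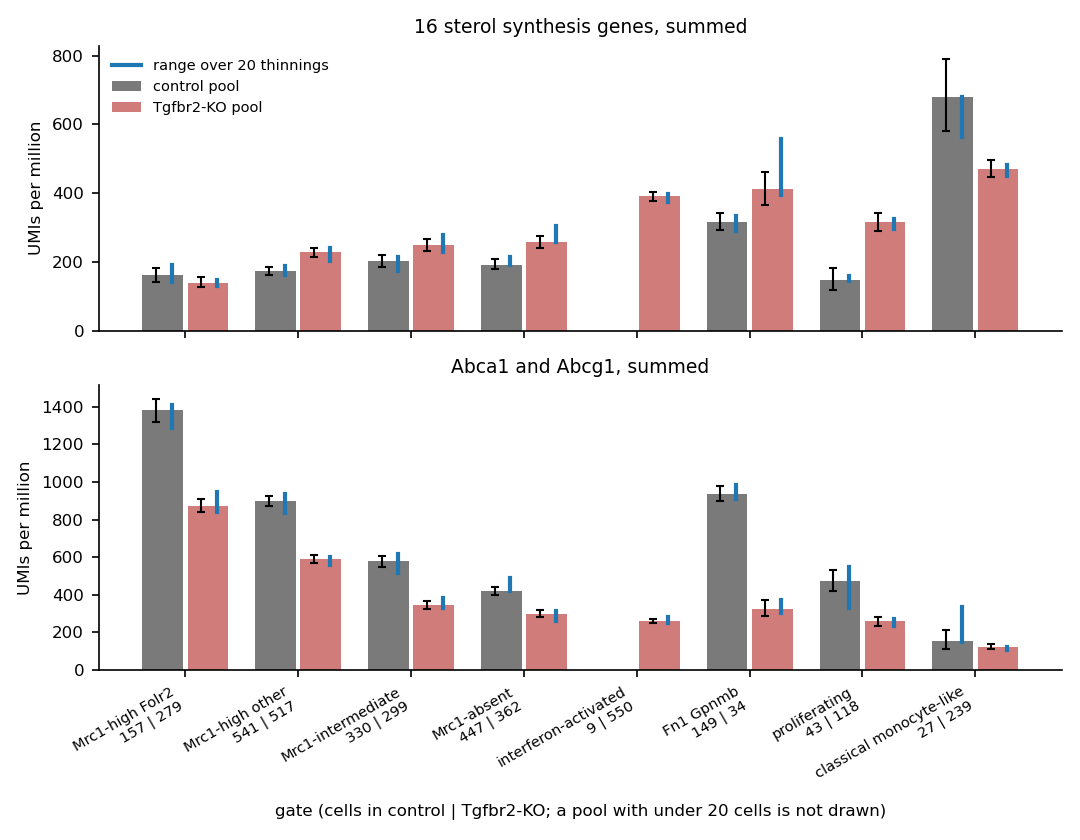
Summed level of the 16 sterol synthesis genes (top) and of Abca1 plus Abcg1 (bottom) by gate, in UMIs per 1000000, for the control pool (grey) and the Tgfbr2-KO pool (red), with 95% counting intervals (black) and the range over 20 thinnings (blue). The efflux sum runs from 1382 down to 420 in the control pool from the Mrc1-high Folr2 to the Mrc1-absent gate. The synthesis sum is highest in the classical monocyte-like gate.

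Within the Tgfbr2-KO pool, monocyte-like cells were set against Mrc1-high cells gene by gene. Of 23 members tested, 14 were called higher against 24.3% of all genes, among them 8 of the 10 tested synthesis genes, and 2 were called lower (Abca1 and Mylip) against 22.1%. Of the 14, Srebf2, Nr1h2, Insig1 and Soat1 fell under 1.5-fold in some thinnings, with lowest ratios from 1.34 to 1.46. Fdps read 100.02 UPM in the monocyte-like and 25.5 UPM in the Mrc1-high cells, a ratio of 3.92 (3.51 to 5.00 over thinnings). Sqle read 21.7 and 5.72 UPM, and Hmgcs1 34.7 and 13.3 UPM. Nsdhl and Sc5d were the 2 tested synthesis genes that were not called, with ratios of 1.21 and 1.29. Abca1 read 79.8 UPM in the monocyte-like and 652 UPM in the Mrc1-high cells, 8.17 times lower (8.05 to 9.62 over thinnings). The share of thinned cells with an Abca1 UMI was 17.99% in the monocyte-like gate (13.3 to 23.5) and 81.4% in the Mrc1-high Folr2 gate (76.3 to 85.8). Abcg1 did not share this order, with 43.0 and 36.5 UPM. Scd2 was 3.17 times higher in the monocyte-like cells. The monocyte-like cells were also deeper, with a median of 10862 UMIs. The median was 8707 in the Mrc1-high Folr2 gate and 8457 in the other Mrc1-high cells of that pool, and the part of depth was not tested.

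Abcg1 and Abca1 also differed in their order among macrophages. In the control pool Abca1 read 1361 UPM in the Mrc1-high Folr2 gate and 355 UPM in the Mrc1-absent gate, a ratio of 3.83 (3.06 to 3.83 over thinnings). Abcg1 read 20.8 and 65.0 UPM in the same gates, 3.12 times lower in the Mrc1-high Folr2 gate (1.90 to 3.51). Of 10 members tested there, Abca1 alone was called higher against 25.1% of genes, and Fdps and Abcg1 lower against 11.4%. In the Tgfbr2-KO pool Abca1 was again the 1 member called higher of 12 tested, against 17.8%. There 5 were called lower (Pmvk, Fdps, Cyp51, Nr1h3 and Abcg1) against 12.7%. Nr1h3 in that pool read 7.22 UPM in the Mrc1-high Folr2 gate and 45.2 UPM in the Mrc1-absent gate, so of the 4 Mrc1 gates the LXR-alpha gene was lowest where Abca1 was highest.

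The highest Abcg1 level among gates with at least 100 cells was in the Fn1 Gpnmb gate of the control pool (149 cells), named for fibronectin and the lysosomal glycoprotein gene Gpnmb. Abcg1 read 199 UPM there, against 44.9 UPM in the Mrc1-high cells of that pool, a ratio of 4.43 (3.99 to 5.70 over thinnings). Soat1 read 118 against 69.8 UPM and Idi1 29.8 against 10.2 UPM. In all, 10 of 17 members tested were called higher than in Mrc1-high cells, against 16.6% of genes, and Mylip was called lower, against 10.1%. Some of these calls were lost in some thinnings: the lowest ratio was 1.43 for Fdft1 and 1.12 for Nr1h2, and Mylip was at least 1.44 times lower. The Fn1 Gpnmb cells of the control pool were deeper, with a median of 12391 UMIs. The median was 8900 in the Mrc1-high Folr2 gate and 7263 in the other Mrc1-high cells, and the part of depth was not tested. Abca1 read 740 against 974 UPM, short of the call. The Tgfbr2-KO pool held 34 cells of this gate, too few for a count of members, and read 230 UPM of Abca1 and 96.6 UPM of Abcg1 there.

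Within the Mrc1 gates the difference between the pools was smaller than over all cells. Over the 4 gates together (1475 control and 1457 Tgfbr2-KO cells) the synthesis ratio was 1.22 (1.15 to 1.28) and the efflux ratio 0.70 (0.68 to 0.72). There 4 of 28 members tested were called higher (Mvk, Pmvk, Sqle and Nr1h3), against 6.39% of genes, and none lower, against 2.90%. Abca1 read 687 and 475 UPM over these cells, a ratio of 0.69 (0.67 to 0.71), just short of the call. In the Mrc1-high cells the synthesis ratio was 1.16 (1.03 to 1.21 over thinnings) and in the Mrc1-absent cells 1.34 (1.29 to 1.53). The efflux ratio was 0.68 (0.66 to 0.72) and 0.71 (0.56 to 0.72), so the 2 gates overlap on this measure. The small Cd209a Ccl17 gate (52 control and 38 Tgfbr2-KO cells), named for 2 dendritic cell genes, went the other way: efflux read 298 and 621 UPM, a ratio of 2.08 (1.71 to 2.55), and the quotient 1.28 and 0.692. The synthesis sum in the Mrc1-high Folr2 gate was not higher, with a ratio of 0.87 (0.72 to 1.03 over thinnings).

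In the Mrc1-high cells as a whole 22 members were tested: Nr1h3 was called higher (10.7 and 17.7 UPM; 6.38% of genes) and none lower (3.95%). Single members in single gates rest on far fewer UMIs. In the Mrc1-high Folr2 gate 6 members were tested, and Nr1h2 was called higher (6.33% of genes) and Abca1 lower (6.18%). Nr1h2 read 22.9 and 38.4 UPM there but kept the call in only 3 of 20 thinnings. In the other Mrc1-high cells 4 of 16 were called higher (Pmvk, Idi1, Fdps and Nr1h3; 6.47%) and Abca1 lower (4.15%). In the Mrc1-intermediate gate 3 of 13 were called higher (Pmvk, Insig1 and Nr1h3; 5.71%) and Abca1 lower (3.49%). In the Mrc1-absent gate 3 of 15 were called higher (Pmvk, Cyp51 and Nr1h3; 7.54%) and none lower (2.49%). Nr1h3 in that gate read 12.4 UPM in the control and 45.2 UPM in the Tgfbr2-KO pool, and was called in 20 of 20 thinnings, with ratios from 2.21 to 3.65. Neutrophil markers in the Mrc1-absent gate read 32.1 UPM in the control (6 of 10 with a UMI) and 220 UPM in the Tgfbr2-KO pool (7 of 10), against 65.4 and 59.6 UPM in the Mrc1-high cells, and their part in the ratios of the Mrc1-absent gate was not tested. Pmvk read 22.0 and 37.7 UPM, called in 20 of 20, and Cyp51 18.9 and 34.5 UPM, called in 19 of 20. Abca1 read 355 and 247 UPM, a ratio of 0.70 that was not called in the thinning used but was in 18 of 20. In the Mrc1-intermediate gate Abca1 read 509 and 286 UPM and was called in 20 of 20. Insig1 in that gate read 30.3 and 48.4 UPM but was called in 2 of 20.

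**Figure D3:**
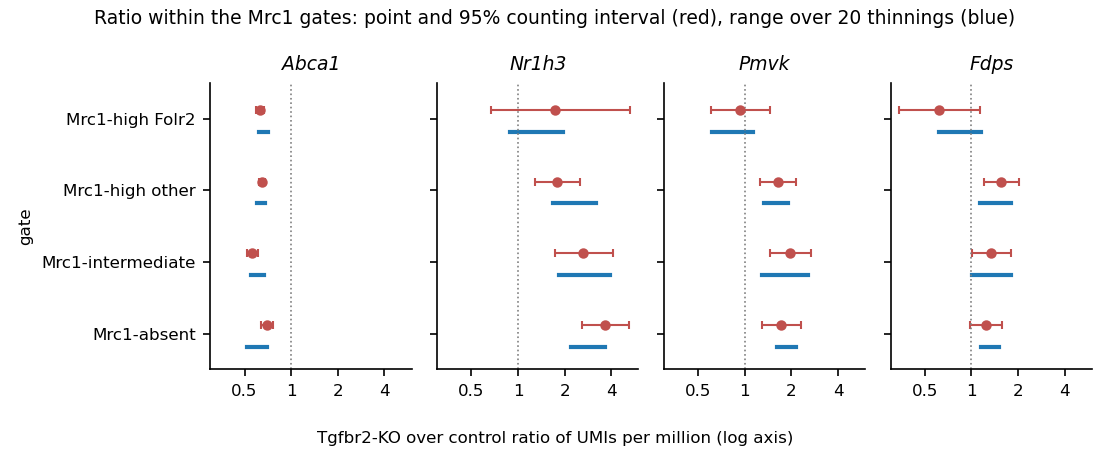
Ratio of Tgfbr2-KO over control UMIs per 1000000 for Abca1, Nr1h3, Pmvk and Fdps in the 4 Mrc1 gates on a log axis: value with 95% counting interval in red, range over 20 thinnings in blue, dotted line at 1. Abca1 lies left of the line in every gate, from 0.56 to 0.70, and Nr1h3 right of it, at 3.65 in the Mrc1-absent gate, while its interval spans 1 in the Mrc1-high Folr2 gate.

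The interferon-activated gate, with Cxcl9 and other interferon-gamma target genes, held 9 control and 550 Tgfbr2-KO cells (20.6% of that pool), so pools cannot be compared in it. Against the Mrc1-absent cells of the Tgfbr2-KO pool, 10 of 25 members tested were called higher, against 11.8% of genes, and none lower, against 7.70%. The synthesis sum read 391 and 258 UPM, a ratio of 1.52 (1.23 to 1.52 over thinnings). Nr1h3 read 73.3 UPM in the interferon-activated and 45.2 UPM in the Mrc1-absent cells, and Pmvk 76.4 and 37.7 UPM. Abca1 read 199 and 247 UPM. These cells were also deeper, with a median of 14588 UMIs against 8322 in the Mrc1-absent cells of that pool. Leaving the gate out gave a synthesis ratio of 1.33 (1.28 to 1.39) and an efflux ratio of 0.56 (0.55 to 0.57) over all cells. Of 30 members, 7 were then called higher (10.2% of genes) and Abca1 lower (5.05%). In proliferating Tgfbr2-KO cells (118), Pmvk and Idi1 were called higher than in Mrc1-absent cells, of 14 members tested (17.9%), and Nr1h3 lower (5.21%). Over thinnings the ratio ran from 1.15 to 1.54 for Pmvk and from 1.09 to 1.86 for Idi1, so these 2 calls depend on the thinning. Nr1h3 was 1.57 to 2.30 times lower.

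Several members changed with the depth of the cell, and did so differently in the pools. In cells of 3000 to 6000 UMIs Abca1 read 670 UPM in the control and 650.0 UPM in the Tgfbr2-KO pool, a ratio of 0.97 (0.89 to 1.05). In cells of over 18000 UMIs it read 759 and 232 UPM, a ratio of 0.31 (0.29 to 0.33). Within the 4 Mrc1 gates the Abca1 ratio ran likewise from 1.05 (0.96 to 1.16) in cells of 3000 to 6000 UMIs to 0.49 (0.44 to 0.55) in cells of over 18000. The 80 control cells under 3000 UMIs read 2932 UPM of Abca1, against 949 UPM in the 83 such Tgfbr2-KO cells. Summed neutrophil markers read 671 and 7854 UPM in these same cells, and their part in this difference was not tested. Nr1h3 had no steady order with depth in its ratio. It read 3.98 and 18.04 UPM in cells of 3000 to 6000 UMIs, from 8 and 30 UMIs, a ratio of 4.54 (2.03 to 11.5). It read 9.52 and 11.6 UPM in cells of 6000 to 9000, a ratio of 1.22 (0.83 to 1.81), and 17.9 and 57.0 UPM in cells of over 18000, a ratio of 3.18 (2.24 to 4.65). The synthesis sum was higher in deeper cells in both pools, from 164 and 190 UPM in cells of 3000 to 6000 UMIs to 314 and 412 UPM in cells of over 18000, with ratios from 1.12 to 1.38 in the 5 ranges from 3000 UMIs up. In the Mrc1 gates the synthesis ratio had no steady direction over these ranges, from 0.87 (0.74 to 1.02) to 1.46 (1.27 to 1.68). Depth, cell state and genotype move together in these pools, and their parts cannot be told apart.

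**Figure D4:**
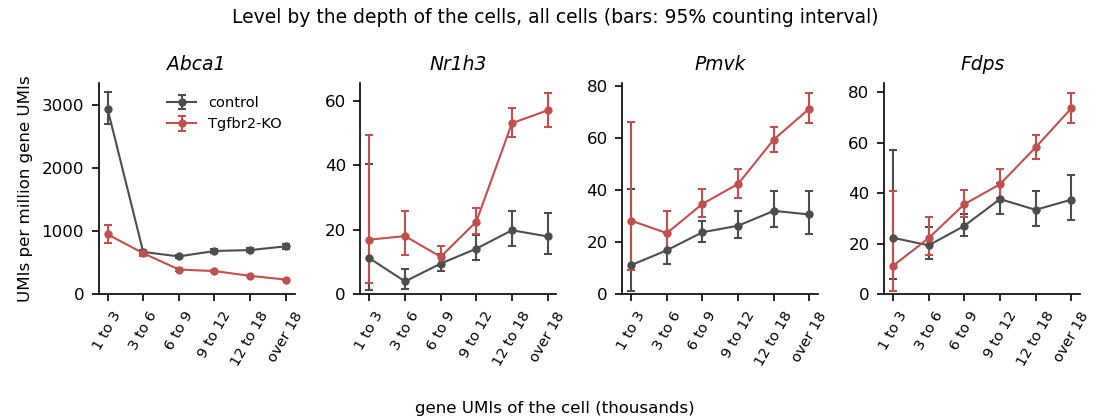
Level of Abca1, Nr1h3, Pmvk and Fdps by the UMIs of the cells (in units of 1000), over all cells, in UMIs per 1000000 gene UMIs, for control (grey) and Tgfbr2-KO (red), with 95% counting intervals. The Abca1 values meet at 670 and 650.0 in cells of 3000 to 6000 UMIs and part to 759 and 232 in the deepest cells, where Nr1h3 reads 17.9 and 57.0.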

How the data were processed

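One 10x Chromium 3′ library with hashtags was analysed. Per the submitters' processing notes, Cell Ranger 8.0, Seurat 5.1.0 and GRCm38 were used; the header of the matrix names version 8.0.0. The gene annotation's version is not stated in any label or header. The deposited matrix holds whole-number UMI counts per gene and barcode for 22597 genes, without normalization or cell filter. Per the file headers, the hashtag table of 4887 called cells gives each assignment and its posterior probability as a fraction; the authors' hashtag columns are log10 of the count plus 1.

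Assigned cells with at least 1000 UMIs, 500 genes and at most 10% mitochondrial UMIs were kept (4570 of 4671). The 96 hashtag multiplets were left out, and doublets within a pool were not removed. Counts were summed per pool and gate and divided by all gene UMIs. Intervals are exact, at 95%: Poisson for levels, conditional binomial for ratios and Clopper-Pearson for shares. For calls, a pool with no UMI of a gene was given 3. Gates with under 100 cells in a pool give values but no counts of members. The calls were tested on simulated counts. All 31 members have levels; values by gate go to members called over all cells or in a gate, and to the 2 highest of each role. The members, lists and gates were chosen with earlier results of these data known. The random thinning was made per cell, and the depth mix, the 20 thinnings, the run without the structural gate and the second free RNA bound were chosen after values had been seen. Python 3.11.15, numpy 2.4.6, scipy 1.17.1 and pandas 2.3.3 were used.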

Additional observations from a re-analysis of the deposited data

How the results depend on the processing

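No paired analysis was possible because each genotype is 1 pool without replicates, and no replicate could be left out. The synthesis ratio over all cells was 1.56 with free RNA subtracted, 1.39 with trimmed-mean scaling, 1.33 without the interferon-activated gate, 1.29 with the same mix of depths and 1.26 with the same mix of gates. The efflux ratio over all cells was 0.45, 0.48, 0.56, 0.52 and 0.59 in the same order, and 0.54 with each cell weighted equally. In the Mrc1-high cells the synthesis ratio was 1.27 with free RNA subtracted, 1.06 with gates at 2000 UMIs, 1.07 without thinning and 1.03 at the lowest of the 20 thinnings, and the efflux ratio 0.63 with free RNA subtracted, 0.73 with cells weighted equally and 0.72 at the highest thinning. In the Mrc1-absent cells the synthesis ratio was 1.53 at the highest thinning, and the efflux ratio 0.61 with gates at 2000 UMIs, 0.65 with trimmed-mean scaling and 0.56 at the lowest thinning. The members called higher over all cells numbered 5 with the same mix of depths, 4 with the same mix of gates, 4 at 2-fold and 0 where 100 UPM was also required, which left 1 member, Abca1, to test. Those called lower numbered 2 (Abca1 and Abcg1) with the same mix of depths, the same mix of gates or free RNA subtracted. Of ratios that were 1.5-fold or more from 1, those that crossed 1 were the Scd1 ratio over all cells, 0.65 with the stricter cell filter and 0.67 without the structural gate, and Hsd17b7 in the Mrc1-absent cells, 0.91 at the lowest thinning. Smaller ratios crossed 1 too, among them Fdft1 over all cells (1.06, at lowest 0.68), Lss in the Mrc1-absent cells (1.46, at lowest 0.47) and, in the Mrc1-high cells, Scd2 (1.48, at lowest 0.64) and the fatty acid sum (1.25, at lowest 0.73). The fatty acid sum over all cells (1.54) was 1.22 with the same mix of depths, 1.28 with the stricter filter and 1.31 without the structural gate. The cause of these shifts was not tested, except that Scd1 turns on 1 cell. The other values of the synthesis and efflux sums and of the counts over all cells stayed within its counting interval or within 1.5 times the count. Trimmed-mean scaling moved all log2 ratios in the Mrc1-absent cells by 0.12. The free RNA bound from structural genes (17.5% in the control, 10.5% in the Tgfbr2-KO pool) is loose, since 2 such genes had 50 or more UMIs in near-empty barcodes; markers of the gates gave 0.148% and 4.67%. Depth limits most members within gates: those under 100 UMIs there have no call.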
